A study of Mus musculus with 2 samples.

Results

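The ligands and receptors of the PDGF and KIT signalling families were followed across the cells of the Isl1-Cre lineage at E13.5. Members were chosen by symbol and comprised 8 of the 32285 genes in the count tables, namely the 5 ligand genes Pdgfa, Pdgfb, Pdgfc, Pdgfd and Kitl and the 3 receptor genes Pdgfra, Pdgfrb and Kit, and each of the 8 was found under 1 identifier. The control library came from Isl1-Cre;R26R-eYFP embryos and the mutant library from Isl1-Cre;R26R-eYFP;Pik3caH1047R embryos, in which Cre recombination also switches on the activating H1047R form of the PI3K catalytic subunit p110α. In both genotypes Isl1-Cre turned on an enhanced yellow fluorescent protein (eYFP) reporter, and eYFP+ cells were sorted from the upper body of 3 pooled embryos and sequenced as 1 single-cell library per genotype. The tissue is labelled pharyngeal arch, although the dissected region reached down to the liver, and a hepatoblast-like cluster of 47 cells was present in the mutant library and had 0 cells in the control library. With 1 library per genotype no comparison has a replicate, so intervals cover counting error only, no p-value is given, and a difference between libraries cannot be told apart from a difference between pools of embryos.

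PDGF ligands are secreted dimers that signal through the receptor tyrosine kinases PDGFRα and PDGFRβ. PDGF-A and PDGF-C act mainly on PDGFRα, which marks mesenchymal progenitors, and are typically made by epithelium and muscle. PDGF-B is made by endothelium and recruits PDGFRβ+ pericytes and smooth muscle to the vessel wall, and PDGF-D also binds PDGFRβ. KIT ligand (stem cell factor, encoded by Kitl) acts on KIT, which supports melanoblasts, mast cells, blood progenitors and germ cells and is also found on some endothelium. PDGF receptors and KIT belong to the same class of receptor tyrosine kinases, and all 3 activate PI3K.

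Promoter windows from the RefSeq table (GRCm38.p6) were used for 6 of the 8 genes. Pdgfb had 0 windows there, and Pdgfrb was left out by choice, so its windows were not examined. The windows of Kitl, Pdgfc and Pdgfd are shown because the comparisons of the libraries turn mainly on these 3 ligands. Each window runs 5′ to 3′ on the strand of the gene, from 250 bases before to 50 bases after the annotated start. Capitals mark the core letters of the hypoxia response element, ACGTG or GCGTG on either strand, which were present in 43.8% of all 32851 windows of this length.
Kitl (chr10:100015571-100015870): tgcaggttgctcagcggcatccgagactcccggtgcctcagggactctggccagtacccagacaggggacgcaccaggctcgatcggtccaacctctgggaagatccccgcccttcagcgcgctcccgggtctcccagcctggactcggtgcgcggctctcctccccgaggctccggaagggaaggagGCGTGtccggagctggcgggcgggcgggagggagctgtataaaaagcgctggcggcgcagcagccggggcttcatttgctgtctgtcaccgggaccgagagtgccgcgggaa
Pdgfc (chr3:81036166-81036465): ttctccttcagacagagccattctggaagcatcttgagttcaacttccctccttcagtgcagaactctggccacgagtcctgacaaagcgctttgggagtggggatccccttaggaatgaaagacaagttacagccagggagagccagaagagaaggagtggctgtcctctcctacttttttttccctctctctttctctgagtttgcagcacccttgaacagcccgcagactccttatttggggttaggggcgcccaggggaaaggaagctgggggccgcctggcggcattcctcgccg
Pdgfd (chr9:6168236-6168535): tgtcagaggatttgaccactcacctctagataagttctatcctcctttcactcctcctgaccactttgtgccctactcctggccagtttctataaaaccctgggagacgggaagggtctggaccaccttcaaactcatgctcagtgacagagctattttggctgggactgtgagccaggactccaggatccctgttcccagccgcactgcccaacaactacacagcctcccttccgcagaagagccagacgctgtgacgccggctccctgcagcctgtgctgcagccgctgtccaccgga
The Kitl window held 1 such core and the Pdgfc and Pdgfd windows held 0. These are descriptions of the letters in 1 window per gene and say nothing of binding.

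In the GENCODE annotation of GRCm38, the receptor genes Pdgfra (chr5:75152292-75198215, plus strand) and Kit (chr5:75574916-75656722, plus strand) are neighbours, and Pdgfrb spans chr18:61045150-61085061 on the plus strand. Pdgfa lies at chr5:138976014-138997370 (minus strand), Pdgfb at chr15:79995874-80014977 (minus strand), Pdgfc at chr3:81036416-81214040 (plus strand), Pdgfd at chr9:6168584-6378850 (plus strand) and Kitl at chr10:100015630-100100416 (plus strand). All 8 are protein-coding. The genes range from 19104 bases (Pdgfb) to 210267 bases (Pdgfd) in length and counts were not divided by length, so levels are compared below between classes and libraries for 1 gene at a time and never between genes.

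Of 4505 control and 5357 mutant cells deposited, 2783 and 3489 passed the filters, with a median of 20412 and 16839 unique molecular identifiers (UMIs) per cell. They fell into 15 clusters, built on genes that left out the members, and named classes below are called X-like because their names were rebuilt from markers. The classes used most were branchial muscle-like (890 control and 843 mutant cells), mesenchyme-like (589 and 521), endothelial cell (EC)-like (147 and 699) and epithelium-like cells (212 and 304). Cluster 4 (365 and 134 cells), led by Adh1, Wnt2, Slc38a5 and Tbx4, stayed unnamed because mesenchymal and mural markers were raised to a like extent, and cluster 6 (174 and 176 cells) held blood cell genes of several kinds. All 15 endothelial markers were raised in EC-like cells, and Cdh5 stood at 766 UMIs per 1000000 UMIs of the class (CPM) in control and 591 CPM in mutant EC-like cells. The pools also differed in sex: 95.5% of control cells were female-like (Xist present and Y-linked transcripts absent), against 33.6% of mutant cells, while 53.3% of mutant cells and 0.0359% of control cells were male-like. The libraries shared 28 cell barcodes before filtering and 12 after it. In mesenchyme-like cells the summed level of the 15 mesenchymal markers was 15615 CPM in control and 5879 CPM in mutant, so the class itself differed between the libraries in its collagen and matrix genes, and the part of this in the results below was not tested.

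The PDGFRα ligands Pdgfa and Pdgfc and the receptors Pdgfra and Pdgfrb had their main sources in separate classes. Kit and Kitl were both found in EC-like cells, although the largest control share of Kit UMIs came from cluster 6. Cluster 6 gave 31.1% of control and 29.3% of mutant Kit UMIs. Branchial muscle-like cells gave 75.9% of all control UMIs of Pdgfa and 77.7% of those of Pdgfc, and the corresponding shares in the mutant library were 67.1% and 73.0%. Mesenchyme-like cells and cluster 4 together carried most of the receptor transcripts, with 68.6% and 20.5% of the control Pdgfra UMIs and 43.1% and 42.5% of the control Pdgfrb UMIs. EC-like cells gave 29.5% of Kitl UMIs in the control and 70.5% in the mutant library, together with 22.4% and 39.5% of Kit UMIs and 39.2% and 76.6% of those of Pdgfb. Mesenchyme-like cells, the main receptor class, also gave 26.7% of control and 11.8% of mutant Pdgfd UMIs. These shares follow the number of cells as well as the level per cell, and EC-like cells made up 5.28% (95% Clopper-Pearson interval 4.48 to 6.18%) of control and 20% (18.7 to 21.4%) of mutant cells. Over all filtered cells, the Kitl level was 45.9 CPM in control and 55.6 CPM in mutant, although it was lower in the mutant library within 6 of the 9 compared classes, with intervals below 0.

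**Figure D1:**
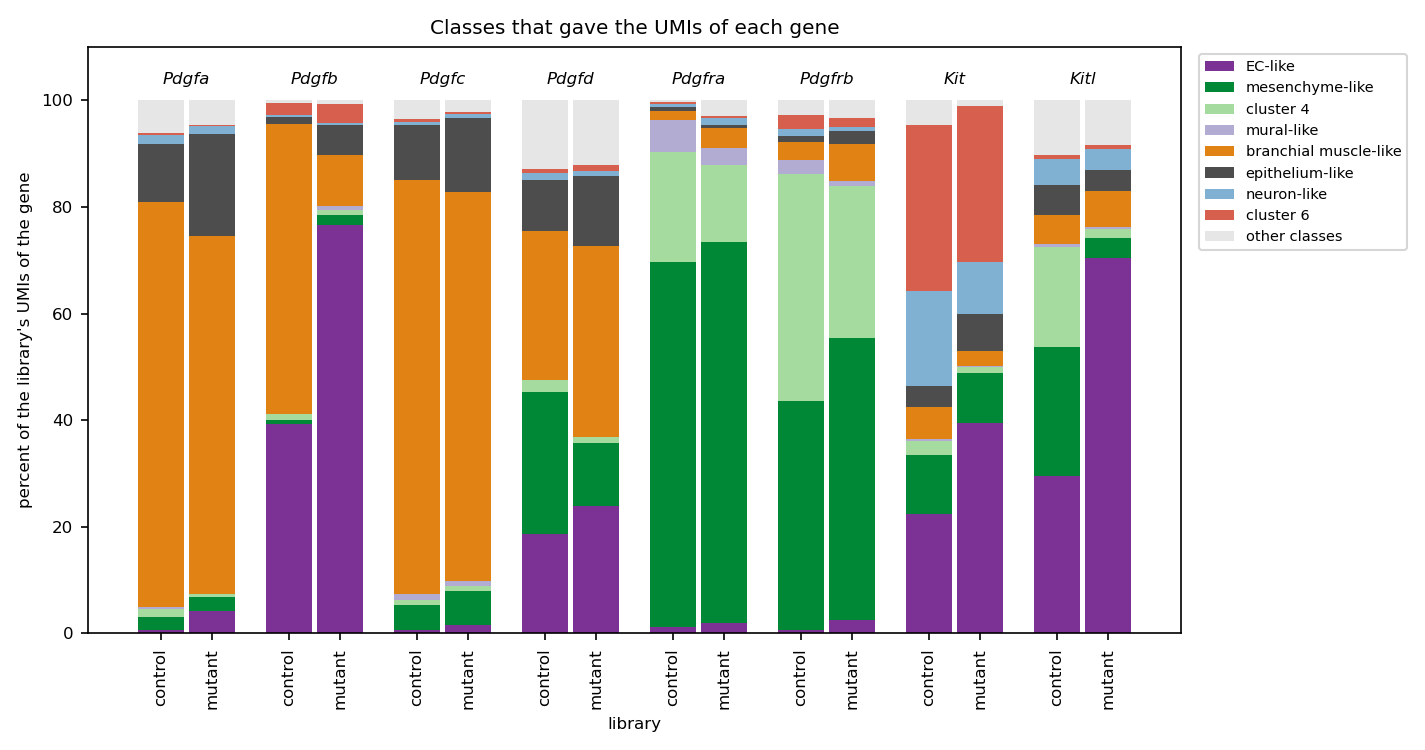
Share of each library's UMIs of a gene that came from each class, in percent, with 1 bar for the control and 1 for the mutant library. The EC-like share of Kitl goes from 29.5% to 70.5% and that of Pdgfb from 39.2% to 76.6%, while branchial muscle-like cells give most Pdgfa and Pdgfc in both.

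**Figure D2:**
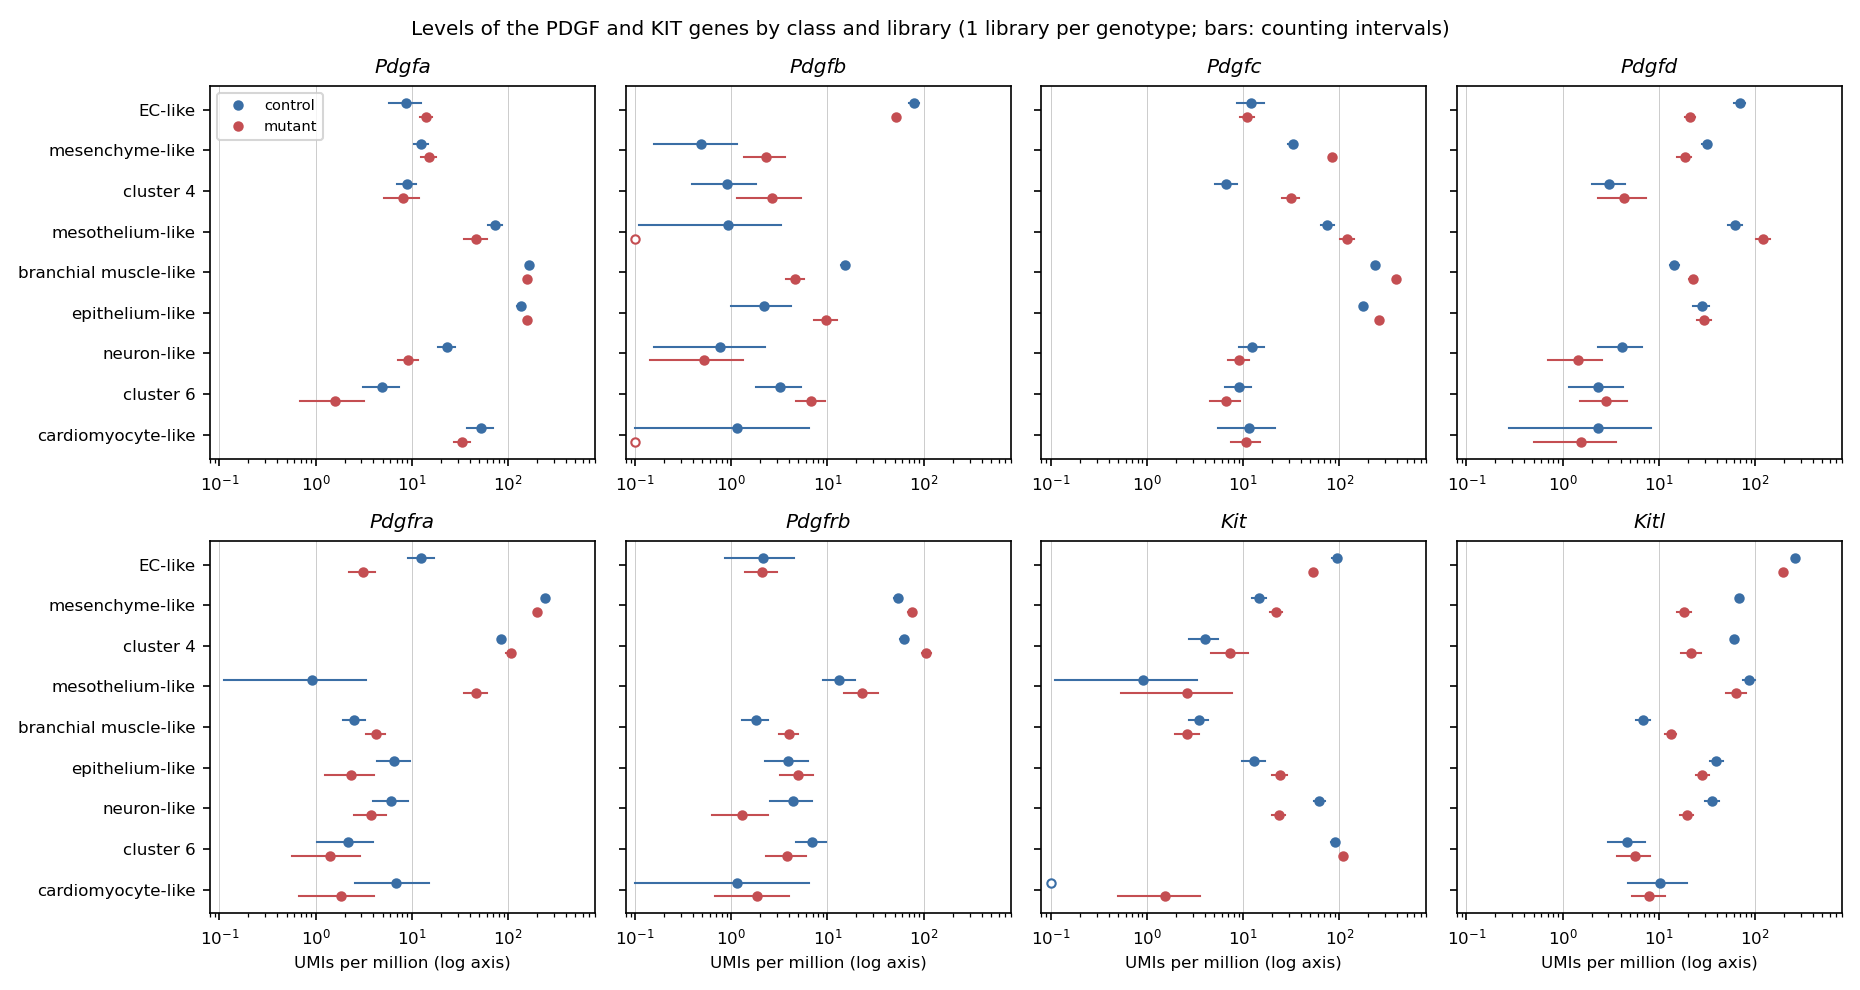
Level of each member in CPM (log axis) in the 9 classes that held 50 or more cells in each library, control in blue and mutant in red, with bars for the 95% exact Poisson interval. Open circles drawn at 0.1 stand for 0 UMIs, and intervals are cut there. Pdgfa and Pdgfc are highest in muscle-like and epithelium-like cells, Pdgfra and Pdgfrb in mesenchyme-like cells and cluster 4, and Pdgfb and Kitl in EC-like cells.

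Of the PDGFRα ligands, Pdgfc was higher in the mutant library in branchial muscle-like, mesenchyme-like and epithelium-like cells and in cluster 4. In mesothelium-like cells its log2 ratio was 0.69 over all cells but 0.11 (−0.50 to 0.68) between female-like cells, and 28.6% and 26.2% of cells had a UMI after thinning. In branchial muscle-like cells Pdgfc was at 233 CPM (95% interval 227 to 239) in control and 383 CPM (374 to 392) in mutant, and the log2 ratio was 0.72 (0.66 to 0.77). The same direction was seen in each of the 6 finer clusters of this class with at least 15 cells in both libraries, from 129.6 against 285 CPM in cells led by Rbm24, Dok7 and Myog, genes of differentiating muscle, to 754 against 898 CPM in cells led by Pax7, a marker of muscle progenitors. The Pax7 cluster was shallow, with a median of 9664 control and 7456 mutant UMIs and 5.40% and 4.12% mitochondrial UMIs per cell. The cluster led by Msc and Myf5 had 30314 and 24848 UMIs and 1.32% and 1.14%. After every cell was thinned to 5000 UMIs, 58.0% of control and 77.2% of mutant muscle-like cells had a Pdgfc UMI (89.9% and 94.4% before thinning). In cluster 6, taken as a class that should lack the gene, 2.35% and 2.94% did, and its median depth was 25411 and 27322 UMIs against 26394 and 22339 in muscle-like cells. Female-like and male-like mutant cells had nearly the same Pdgfc level, at 384 and 386 CPM, against 235 CPM in female-like control cells.

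In mesenchyme-like cells, where the level was lower, Pdgfc was at 32.8 CPM (29.4 to 36.5) in control and 84.3 CPM (78.0 to 91.0) in mutant, and the log2 ratio was 1.36 (1.17 to 1.55). In cluster 4 it was at 6.69 CPM in control and 31.1 CPM in mutant, and the log2 ratio of 2.22 (1.73 to 2.71) was the largest for Pdgfc among the 9 compared classes. The control level of cluster 4 was at background, as control cluster 6 had 9.02 CPM. After thinning, 2.49% of control and 9.30% of mutant cluster 4 cells had a Pdgfc UMI, against 2.35% and 2.94% in cluster 6. Epithelium-like cells had 174 CPM in control and 258 CPM in mutant, and the log2 ratio was 0.57 (0.44 to 0.70). The epithelial finer clusters had unlike ratios. In that led by Sftpc and Cga, genes of lung epithelium and pituitary, Pdgfc was at 67.2 and 149 CPM, whereas in the cluster led by Trp63, a basal epithelial gene, it was at 361 and 438 CPM. EC-like cells had 39 control and 154 mutant UMIs of Pdgfc, and the log2 ratio of −0.12 had an interval from −0.64 to 0.42.

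Pdgfa, the other main PDGFRα ligand, was close between the libraries in its main source. Branchial muscle-like cells had 165 CPM in control (160 to 170.5) and 158 CPM in mutant (152 to 163), and the log2 ratio of −0.07 had an interval from −0.14 to 0.00. Epithelium-like cells had 135 CPM (124 to 146) in control and 158 CPM (148 to 169) in mutant. That epithelial difference was found in female-like mutant cells, at 189 CPM, and not in male-like mutant cells, at 136 CPM, against 134 CPM in female-like control cells. Pdgfa and Pdgfc therefore differed in their ratios within muscle-like cells, and their intervals did not overlap.

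Counted against the background of the class, the members stood as follows. In branchial muscle-like cells all 8 members had at least 50 UMIs over both libraries, and 5 (Pdgfc, Pdgfd, Pdgfra, Pdgfrb and Kitl) were more than 1.5-fold higher in the mutant, where 13.4% of 13475 genes with at least 50 UMIs were, while 1 (Pdgfb) was more than 1.5-fold lower, where 7.90% of genes were. The shares of cells with a UMI of these receptors were near background. After thinning, 0.799% and 1.38% of muscle-like cells had a Pdgfra UMI, against 1.49% and 1.05% in epithelium-like cells. For Pdgfrb the shares were 1.26% and 2.38%, against 2.49% and 1.75%. The Pdgfra ratio turned below 0 under 4 alternatives, whereas the Pdgfrb ratio stayed above 0 in all 11 (0.72 to 1.34). In mesenchyme-like cells 2 of 7 counted members (Pdgfc and Kit) were past 1.5-fold higher, where 9.24% of 13001 genes were, and 2 (Pdgfd and Kitl) past 1.5-fold lower, where 12.0% were. In EC-like cells 1 of 7 (Pdgfa) was past 1.5-fold higher, where 11.8% of 12066 genes were, and 4 (Pdgfb, Pdgfd, Pdgfra and Kit) past 1.5-fold lower, where 12.7% were. In epithelium-like cells 2 of 6 (Pdgfb and Kit) were past 1.5-fold higher, where 8.30% of 11695 genes were, and 0 were past 1.5-fold lower, where 9.35% were.

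**Figure D3:**
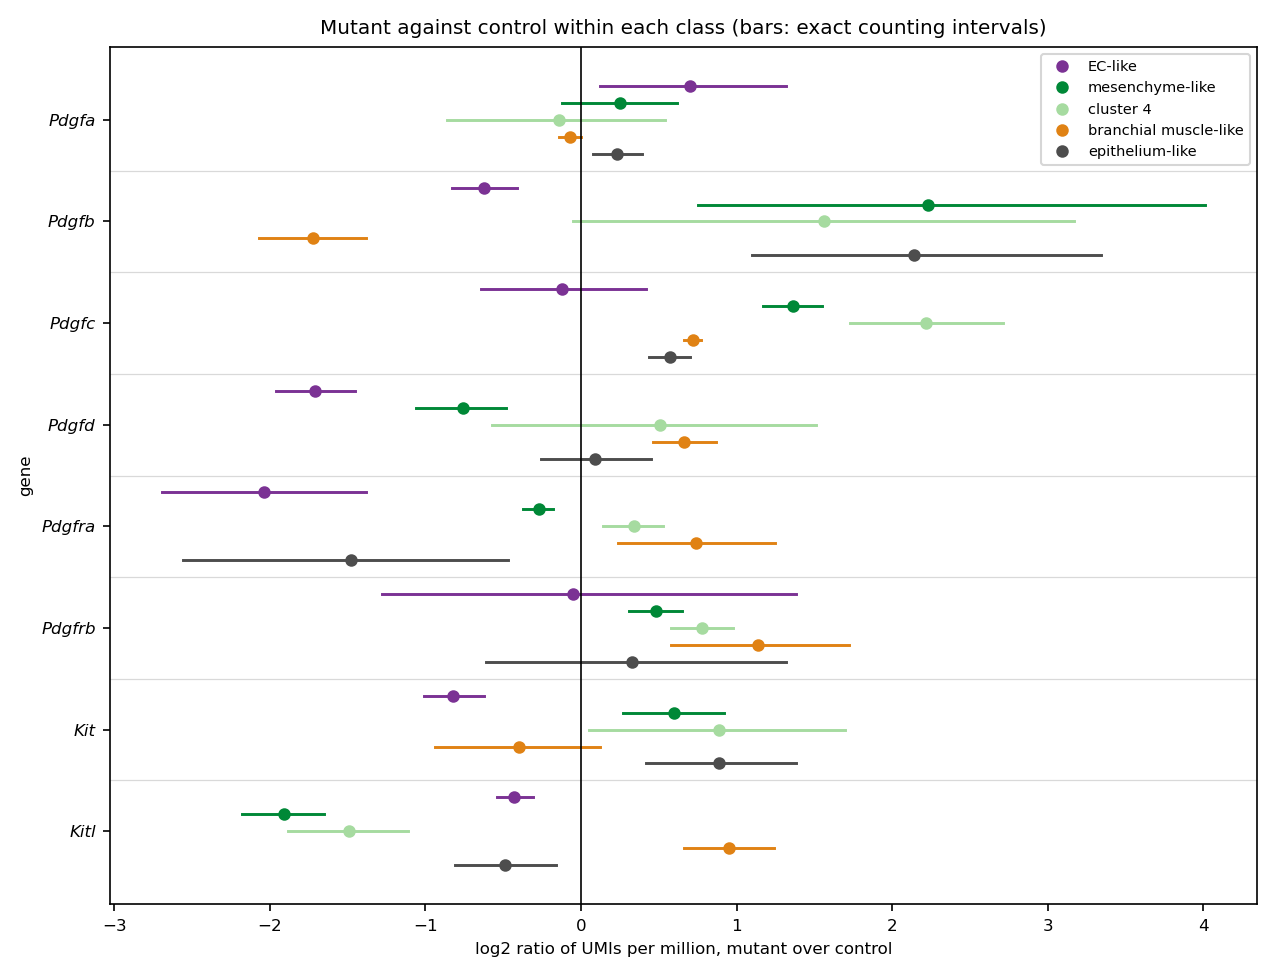
Log2 ratio of CPM, mutant over control, for each member in EC-like, mesenchyme-like, branchial muscle-like and epithelium-like cells and in cluster 4, with bars for the 95% exact counting interval and the line at 0 marking equal levels. Pdgfc lies to the right of 0 in 4 of the 5, and Kitl lies to the left of 0 in 4 of the 5 and to the right in branchial muscle-like cells.

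In EC-like cells, both PDGFRβ ligands were lower in the mutant library. Pdgfb, the endothelial signal to pericytes, was at 79.6 CPM (70.1 to 89.9) in control and 51.8 CPM (48.1 to 55.7) in mutant, and the log2 ratio was −0.62 (−0.83 to −0.41). Pdgfd was at 69.4 CPM (60.6 to 79.1) and 21.2 CPM (18.9 to 23.8), and the log2 ratio was −1.71 (−1.96 to −1.45). After thinning to 5000 UMIs, a Pdgfd UMI was found in 21.5% of control and 7.20% of mutant EC-like cells, and a Pdgfb UMI in 32.6% and 20.4%. Before thinning the shares were 44.9% and 16.0% for Pdgfd and 59.9% and 44.6% for Pdgfb. As background, 0.588% and 1.76% of cells had a Pdgfd UMI after thinning (cluster 6). Branchial muscle-like cells had been chosen as the background class for Pdgfb, but 6.16% of control and 2.13% of mutant cells had a UMI there, so cluster 6 is given in their place, a choice made after seeing the values, with 1.76% and 5.29%.

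The Pdgfb ratios of the finer EC-like clusters differed by more than counting error. In the cluster led by Gja4, Bmx and Gkn3, which are arterial genes, Pdgfb was at 105 CPM in 19 control cells and 31.4 CPM in 85 mutant cells (log2 ratio −1.75, −2.42 to −1.06). In the larger cluster led by Fabp4, Kcne3 and Aplnr it was at 74.5 and 52.9 CPM (log2 ratio −0.49, −0.73 to −0.26). In the third, led by Tll1, Cyyr1 and Itga2, the levels were 101 and 73.8 CPM and the interval includes 0 (−1.12 to 0.25). Pdgfd was highest in the arterial cluster, at 303 CPM in control and 86.3 CPM in mutant, and was lower in the mutant library in all 3 clusters, with log2 ratios from −2.11 to −1.46. Both ligands were lower in female-like and in male-like mutant cells, with Pdgfd at 73.6 CPM in female-like control, 17.5 CPM in female-like mutant and 25.2 CPM in male-like mutant EC-like cells.

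Outside the endothelium Pdgfb was low, and its ratios had both signs. Branchial muscle-like cells gave 54.3% of control Pdgfb UMIs but 9.54% of mutant ones, at 15.2 CPM (13.7 to 16.9) in control and 4.62 CPM (3.71 to 5.67) in mutant, and the log2 ratio was −1.72 (−2.07 to −1.38). Its highest muscle levels were in the shallow cluster led by Pax7 (27.8 and 7.42 CPM) and in that led by Msc and Myf5 (23.9 and 6.70 CPM), regulators of early muscle cells. After thinning, 6.16% (4.66 to 7.97%) of control and 2.13% (1.25 to 3.39%) of mutant muscle-like cells had a UMI. The interval of the control share overlapped that of cluster 6 (0.365 to 5.07%), and the mutant share was below the 5.29% of cluster 6. Control mesenchyme-like and neuron-like cells had smaller shares, at 0% (0 to 0.641%) and 0.543% (0.0138 to 2.99%). The interval of the control muscle share lay above those of both of these classes. In CPM, the control muscle level also lay above that of control cluster 6, at 3.22 CPM (1.80 to 5.31). Before thinning, 22.0% (19.3 to 24.9%) of control muscle-like cells had a UMI, above the 6.32% (3.20 to 11.0%) of control cluster 6. The median depths of these classes were close, at 26394 and 25411 UMIs. Mutant shares before thinning were 7.35% in muscle-like cells and 12.5% in cluster 6. In the mutant library the CPM intervals of muscle-like cells and cluster 6 overlapped. Control muscle-like cells thus lay above cluster 6 in CPM and in the share before thinning, and overlapped it only after thinning. Whether the mutant muscle share stands above background depends on the class compared, and neither library was tested. The summed level of 15 endothelial markers in muscle-like cells went the other way, at 45.1 CPM in control and 91.7 CPM in mutant. Control epithelium-like cells had 9 Pdgfb UMIs (2.19 CPM) and mutant ones 53 (9.63 CPM), and the log2 ratio was 2.14 (1.10 to 3.34), beside summed endothelial markers at 47.0 and 62.7 CPM. The shares of cells after thinning, 0.498% and 4.56% (2.45 to 7.67%), were below those of cluster 6. Neuron-like and mesenchyme-like cells had smaller shares in the mutant library, at 0% (0 to 0.822%) and 1.45% (0.586 to 2.97%). Whether the epithelial values stand above background depends on the class compared and was not tested. Most of the mutant epithelial UMIs, 30, came from the Trp63 cluster, where the levels were 4.03 and 15.1 CPM.

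Pdgfd had further sources. Mesenchyme-like cells had 31.5 CPM of it in control and 18.5 CPM in mutant, and the log2 ratio was −0.76 (−1.06 to −0.48). In mesothelium-like cells, the covering layer of the body cavities, it was at 62.1 CPM in 70 control cells and 122 CPM in 67 mutant cells, and the log2 ratio was 0.97 (0.62 to 1.33), although after thinning 22.9% of control and 30.8% of mutant cells had a UMI, with overlapping intervals, and before thinning 71.4% and 52.2% did. Branchial muscle-like cells had 14.5 and 22.9 CPM.

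**Figure D4:**
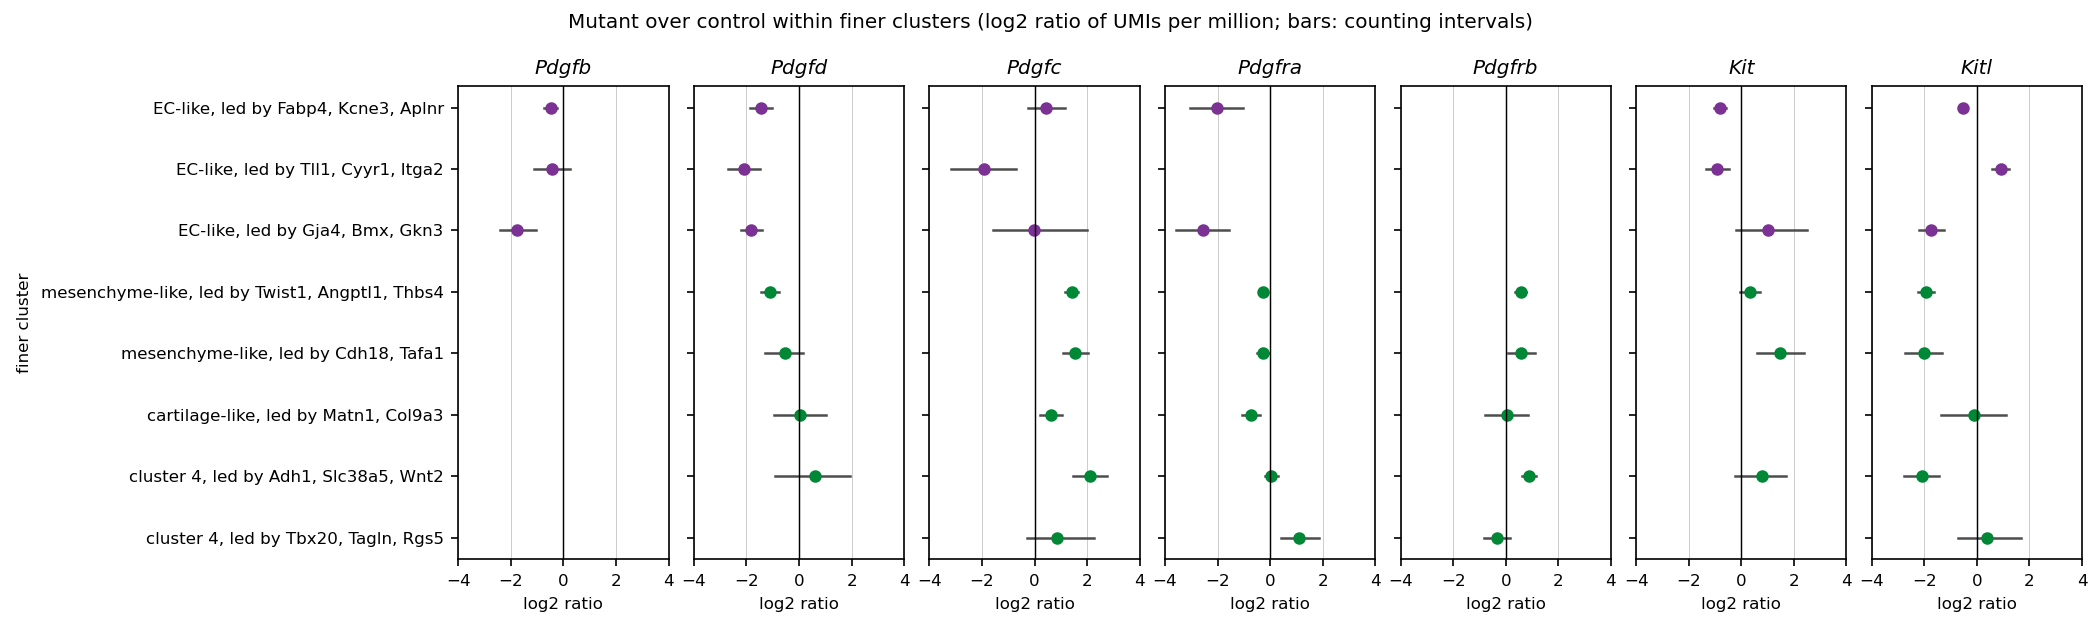
Log2 ratio of CPM, mutant over control, within finer clusters of EC-like cells (purple) and of mesenchyme-like cells and cluster 4 (green), with bars for the 95% counting interval. Clusters with under 20 UMIs of a gene over both libraries or with 0 UMIs in a library are left out. Pdgfd lies below 0 in all 3 EC-like clusters, and Kitl lies below 0 in 2 EC-like clusters and above 0 in the one led by Tll1.

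Among the receptors, Pdgfra was at 244 CPM (234 to 253) in control and 202 CPM (192 to 212) in mutant mesenchyme-like cells, and the log2 ratio was −0.27 (−0.37 to −0.18), and 59.8% and 53.7% of cells had a UMI after thinning (84.6% and 78.7% before). Epithelium-like cells, used as a class that should lack the gene, had 1.49% and 1.05% after thinning, at a median depth of 15727 and 15883 UMIs against 15323 and 13289 in mesenchyme-like cells. The ratio was also below 0 in the cartilage-like cells led by Matn1 and Col9a3, at 203 and 124 CPM, and in the cluster led by Cdh18 and Tafa1, at 524 and 429 CPM. The Cdh18 cluster was shallow, with a median of 8899 control and 7065 mutant UMIs and 2.83% and 2.67% mitochondrial UMIs per cell. The cluster led by Twist1, Angptl1 and Thbs4 had 17483 and 15426 UMIs and 1.38% and 1.32%. Female-like and male-like mutant mesenchyme-like cells had 205 and 203 CPM. In cluster 4, however, Pdgfra was higher in the mutant library, at 84.8 and 107 CPM (log2 ratio 0.34, 0.14 to 0.53). The shares after thinning there, 34.9% (30.0 to 40.1%) and 38.0% (29.6 to 46.9%), overlap. In its cells led by Adh1, Slc38a5 and Wnt2 the Pdgfra levels were close, at 93.4 and 96.9 CPM.

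Pdgfrb went the other way from Pdgfra in mesenchyme-like cells, though not in cluster 4. In mesenchyme-like cells it was at 54.0 CPM (49.6 to 58.6) in control and 75.2 CPM (69.3 to 81.5) in mutant, and the log2 ratio was 0.48 (0.31 to 0.65). After thinning, however, 24.9% of control and 25.7% of mutant cells had a UMI, with overlapping intervals, and before thinning 49.1% and 49.7% did. In cluster 4 the levels were 62.0 and 106 CPM, and the log2 ratio was 0.78 (0.58 to 0.98), and the shares after thinning were 21.3% (17.2 to 25.9%) and 33.3% (25.3 to 42.2%), which overlap. In the cluster 4 cells led by Adh1, Slc38a5 and Wnt2, Pdgfrb was at 61.9 CPM in 274 control cells and 115 CPM in 69 mutant cells. In the cells led by Tbx20, Tagln and Rgs5, of which Tagln and Rgs5 are mural genes, Pdgfrb was at 157 CPM in 15 control cells and 125 CPM in 62 mutant cells, and the interval includes 0. The summed level of 15 mural markers in cluster 4 was 918 CPM in control and 3005 CPM in mutant, where Higd1b alone was at 0, and its part in this difference was not tested.

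Within mesenchyme-like cells both receptor transcripts were often found in 1 cell. After thinning, 15.9% of 574 control cells and 13.1% of 482 mutant cells had UMIs of both, where independent detection at the observed shares would give 14.9% and 13.8%. In the small mural-like cluster led by Myh11, Actg2 and Myocd (38 control and 27 mutant cells), genes of smooth muscle, Pdgfra was at 305 CPM in control and 143 CPM in mutant and Pdgfrb at 47.7 and 21.6 CPM.

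Pdgfra was also measured at low levels elsewhere. In mesothelium-like cells it had 2 control UMIs (0.920 CPM, 0.111 to 3.32) and 53 mutant UMIs (46.5 CPM, 34.8 to 60.8), and the log2 ratio was 5.66 with a wide interval of 3.73 to 8.74. The summed level of the mesenchymal markers in these cells was 8408 CPM in control and 9522 CPM in mutant, that of 15 mural markers was 229 and 936 CPM, and Prrx1, a limb and facial mesenchyme gene, was at 29.0 and 12.3 CPM. EC-like cells had 41 control Pdgfra UMIs (12.6 CPM) and 43 mutant ones (3.08 CPM), beside Col1a1 at 39.2 and 6.10 CPM, and the ratio turned to 0.10 without integration. The part of these markers was not tested.

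Kitl was lower in the mutant library in mesenchyme-like, EC-like, epithelium-like, neuron-like and mesothelium-like cells and in cluster 4, and higher in branchial muscle-like cells. In mesenchyme-like cells it was at 68.5 CPM (63.5 to 73.7) in control and 18.3 CPM (15.4 to 21.5) in mutant, from 703 and 144 UMIs, and the log2 ratio was −1.91 (−2.18 to −1.65). After thinning, 22.1% (18.8 to 25.7%) of control and 6.43% (4.41 to 9.01%) of mutant cells had a UMI, and before thinning 38.5% and 15.5% did. The level was lower in the mutant library in the cluster led by Twist1, Angptl1 and Thbs4 (66.8 and 17.5 CPM) and in the shallow one led by Cdh18 and Tafa1 (125 and 31.3 CPM), and was close in cartilage-like cells (13.9 and 12.8 CPM), where it was low in both. Female-like and male-like mutant cells were both low, at 21.7 and 16.3 CPM, against 67.8 CPM in female-like control cells. Cluster 4 had 61.0 CPM in control and 21.8 CPM in mutant, and the log2 ratio was −1.49 (−1.88 to −1.11), with 41.8 CPM in the 26 female-like and 17.1 CPM in the 95 male-like mutant cells. Against female-like control cells of cluster 4, the log2 ratio of female-like mutant cells was −0.53 with an interval from −1.21 to 0.07. Cluster 4 also held different cells in each library, with 274 control and 69 mutant cells in the Adh1 cluster and 15 and 62 in that led by Tbx20, Tagln and Rgs5. Kitl was at 58.4 and 13.8 CPM in the first (log2 ratio −2.08, −2.77 to −1.45) and at 26.7 and 34.9 CPM in the second (0.39, −0.73 to 1.69). In neuron-like cells Kitl was at 35.9 and 19.5 CPM (−0.88, −1.22 to −0.54). Their shares after thinning, 10.9% (6.77 to 16.3%) and 7.16% (4.95 to 9.96%), overlap. Female-like mutant neuron-like cells had 25.9 CPM and male-like ones 13.2 CPM, and between female-like cells the log2 ratio was −0.48 (−0.85 to −0.10). Mesothelium-like cells had 87.0 and 64.0 CPM (−0.44, −0.85 to −0.04) and epithelium-like cells 39.7 and 28.3 CPM (−0.49, −0.81 to −0.16), and between female-like cells the intervals of both ratios include 0 (−0.75 to 0.44 and −0.83 to 0.05).

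In EC-like cells, the strongest source, Kitl was at 263 CPM (246 to 282) in control and 196 CPM (189 to 204) in mutant, and the log2 ratio was −0.43 (−0.54 to −0.31). The cells behind this value differed. Female-like mutant EC-like cells had 262 CPM, against 274 CPM in female-like control cells, and the log2 ratio of −0.06 had an interval from −0.19 to 0.07. Male-like mutant EC-like cells had 155 CPM, and the log2 ratio of male-like over female-like mutant cells was −0.76 (−0.88 to −0.65), larger than the difference between the libraries. The finer clusters also differed. Kitl was at 211 and 63.4 CPM in the arterial cluster (log2 ratio −1.73, −2.20 to −1.25), at 263 and 182 CPM in the Fabp4 cluster, and at 325 and 607 CPM in the Tll1 cluster, where the ratio was above 0 (0.90, 0.57 to 1.24). The Tll1 cluster held 21 control and 93 mutant cells and was shallow, with a median of 10204 and 7896 UMIs and 4.87% and 3.46% mitochondrial UMIs per cell, against 23723 and 19269 UMIs and 1.69% and 1.26% in the Fabp4 cluster.

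In branchial muscle-like cells, Kitl was low but higher in the mutant library, at 6.87 CPM in control and 13.3 CPM in mutant, with a log2 ratio of 0.95 (0.66 to 1.24). The share of cells with a UMI after thinning was 2.97% and 6.65% (11.3% and 16.3% before), and in cluster 6, taken as a class that should lack the gene, it was 3.53% and 2.35%, so the control share in muscle-like cells was at background. Hepatoblast-like cells, found in the mutant library, had 106 CPM (92.0 to 122), and neural crest and Schwann precursor-like cells had 109.7 CPM in 53 control and 58.6 CPM in 24 mutant cells.

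**Figure D5:**
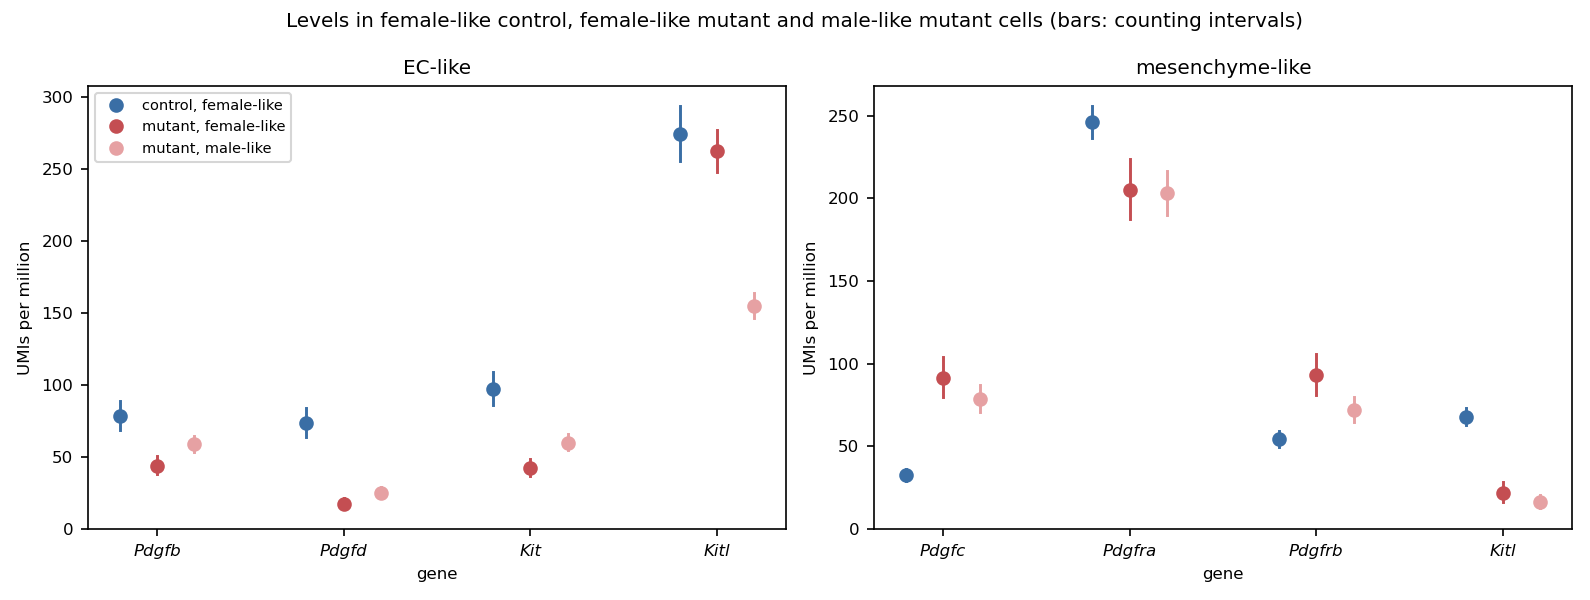
CPM in EC-like cells (left) and mesenchyme-like cells (right) for female-like control, female-like mutant and male-like mutant cells, with bars for the 95% exact Poisson interval. In EC-like cells Kitl stands at 274, 262 and 155 CPM, whereas in mesenchyme-like cells it stands at 67.8, 21.7 and 16.3 CPM.

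Kit, the receptor for Kitl, was spread over several classes. Its highest levels were in the 19 control and 12 mutant cells led by Cpa3, Gzmb and Il13, genes of mast cells, at 357 CPM (313 to 405) and 596 CPM (505 to 699), and erythroid-like cells led by haemoglobin genes had 117 and 111 CPM. Macrophage-like cells led by C1qb had 3 control and 2 mutant UMIs. Cluster 6 as a whole had 90.6 and 109 CPM.

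In EC-like cells Kit was at 93.4 CPM (83.2 to 105) in control and 52.9 CPM (49.2 to 56.9) in mutant, and the log2 ratio was −0.82 (−1.01 to −0.62). After thinning, 31.9% of control and 21.1% of mutant cells had a UMI (57.8% and 43.3% before), against 1.26% and 1.63% of branchial muscle-like cells. Among the EC-like finer clusters it was highest in the Tll1 cluster, at 277 and 148 CPM, and lower in the mutant library in the Fabp4 cluster too, at 83.4 and 47.5 CPM, while the arterial cluster had 19.8 CPM from 6 control UMIs and 39.9 CPM from 61 mutant UMIs. Among cells scored as G1 (66 control and 331 mutant cells) the direction was not kept, with a log2 ratio of 0.21 and an interval from −0.14 to 0.57. EC-like cells with UMIs of both Kit and Kitl after thinning were 18.8% of control cells and 9.90% of mutant cells, where independent detection would give 16.9% and 9.35%.

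Kit was also found in neurons and, at lower levels, in mesenchyme and epithelium. Neuron-like cells had 61.8 CPM in control and 23.4 CPM in mutant, and the finer cluster led by Neurod1, Ppp1r17 and Cdhr1 was at 91.7 CPM in 51 control cells and 11.1 CPM in 118 mutant cells (log2 ratio −3.05, −3.67 to −2.47). The neuronal cluster led by Robo3, Uncx and Hoxb9 had 47.5 and 41.6 CPM. Epithelium-like cells had 12.9 CPM in control and 24.0 CPM in mutant (log2 ratio 0.89, 0.42 to 1.38), with 10.5 and 36.3 CPM in the Trp63 cluster. Between female-like cells the epithelial log2 ratio of Kit was 0.30 (−0.38 to 0.96), male-like over female-like mutant cells gave 0.86, and the shares after thinning, 5.97% (3.12 to 10.2%) and 9.82% (6.63 to 13.9%), overlap. Mesenchyme-like cells had 14.6 and 22.1 CPM (log2 ratio 0.60, 0.27 to 0.92). Melanoblast markers there went the other way, with 8 of them summing to 53.7 CPM in control and 9.38 CPM in mutant, the mast cell gene Cpa3 had 2 and 1 UMIs, and Cma1 and Ms4a2 were at 0 in both. The part of these cells was not tested.

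The other genes of these pathways were taken from 3 lists. Of 10 genes for ligand processing and co-receptors, 9 could be counted in EC-like cells, where 0 were past 1.5-fold higher and 3 past 1.5-fold lower in the mutant, with a median log2 ratio of −0.07, the same as that of all 12066 genes, of which 11.8% were past the fold higher and 12.7% lower. The 3 were the proprotein convertases Pcsk5 (125 and 43.8 CPM) and Pcsk6 (42.6 and 20.9 CPM), whose family cleaves PDGF precursors, and the co-receptor Nrp1 (403 and 229 CPM). In mesenchyme-like cells Pcsk5 (160.4 and 85.2 CPM) and Nrp1 (193 and 85.6 CPM) were again lower, and Plau, a protease that activates PDGF-D, was at 1.46 and 6.59 CPM. Of 32 receptor adaptors, kinases and brakes, 31 could be counted, with 2 past 1.5-fold higher and 2 lower in EC-like cells (median 0.02) and 1 higher and 3 lower in mesenchyme-like cells (median −0.01), where 9.24% of all genes were past the fold higher and 12.0% lower. The counts of this list were therefore at or below the background in both classes. The adaptor Shc1 was at 57.0 and 105 CPM in EC-like cells, and the transcription factors Stat3 (147 and 78.9 CPM) and Stat5a (7.30 and 2.16 CPM) were lower in mutant mesenchyme-like cells. Of 5 genes for the related CSF1 and FLT3 receptors and their ligands, 1 could be counted in each of these classes and 0 were past 1.5-fold.

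Across the 19 class and library sums with at least 50 cells, the pattern most like that of a member was named for each, as a description over sums that share 2 libraries. Among 8016 genes searched, Pdgfa was closest to Pdgfc (Pearson r = 0.81 over the 19 sums, on log2(CPM + 1)). Pdgfc is the only member among the nearest genes of another. Pdgfc was closest to Barx2 (r = 0.88), Pdgfb to N4bp3 and to Vwf, the von Willebrand factor of endothelium (both r = 0.87), and Pdgfd to Tmem135 (r = 0.90). Pdgfra was closest to Hpse2 (r = 0.88) and Pdgfrb to Twist2 (r = 0.92), a mesenchymal transcription factor that was also among the 3 closest to Pdgfra (r = 0.85). Kit was closest to Cotl1 (r = 0.91) and to Cbl (r = 0.90), a ubiquitin ligase for receptor kinases, and Kitl to Sntb2 and Tm4sf1 (both r = 0.89).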

How the data were processed

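Single-cell RNA sequencing was performed on eYFP+ cells of E13.5 embryos, with 1 library of 3 pooled embryos per genotype. The authors deposited raw UMI counts per gene and called cell, made with Cell Ranger 7.1.0 on mm10 per the submitters' processing notes, with cell barcodes and gene identifiers. The annotation release and the treatment of intronic reads are not given in the sources used here, and either could change the counts of long genes.

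The members and lists were chosen with earlier results of these data known. Kept cells had over 2000 and under 9000 genes and a mitochondrial share below 10%: 2783 control cells (63153191 UMIs) and 3489 mutant cells (69717583 UMIs). Seurat 5.3.0 under R 4.3.3 joined the libraries by canonical correlation anchors, using 2000 variable genes from which the 55 members and pathway genes were left out. The cell-cycle scores were regressed out after the libraries were joined. With 30 components and 20 neighbours, resolution 0.3 gave 15 clusters, and resolution 1.5 gave 33 finer ones. A cluster took the name of the marker list with the largest share of genes raised at least 2-fold (at least 3 genes and 30%, with a margin of 10 points or more of its markers among the top 10 genes); this naming rule was set after the clusters were seen. Doublets were kept in the reported values.

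Levels are the summed UMIs of a gene in a class of 1 library, per 1000000 UMIs of that class (CPM). The 95% intervals are exact Poisson (CPM), Clopper-Pearson (shares) and, for ratios, the exact binomial conditioned on the sum, and all cover counting error only. Classes were compared with at least 50 cells in both libraries, and finer clusters with at least 15. Shares were also taken after thinning each cell to 5000 UMIs, and the 61 control and 173 mutant cells below that depth were dropped. The genes named beside the 8 members are listed pathway genes with at least 50 UMIs whose interval lay beyond 1.5-fold in EC-like or mesenchyme-like cells, at most 5 in each direction, and the 3 most correlated genes of each member, of which some are named. Female-like cells had Xist but none of the Y-linked genes, and male-like cells the reverse. The interval scripts were tested on simulated data. The alternatives tried were no integration, another resolution, wider or stricter cell filters, removal of the highest Scrublet scores (scanpy 1.11.5, 162 control and 230 mutant cells), thinning, other scalings, G1 cells, and female-like or male-like cells.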

Additional observations from a re-analysis of the deposited data

Results flagged for a closer look

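For 5 pairs of classes, the ratio of mutant over control lay above 0 with its whole counting interval in 1 class and below 0 in the other, past 1.5-fold in both. With 1 library per genotype these differences between classes were not tested. Kitl was higher in mutant branchial muscle-like cells (log2 ratio 0.95, 0.66 to 1.24) and lower in mutant mesenchyme-like cells (−1.91, −2.18 to −1.65), 2.86 apart on the log2 scale. Pdgfb was lower in mutant branchial muscle-like cells (−1.72, −2.07 to −1.38) and higher in mesenchyme-like cells (2.23, 0.75 to 4.01, from 5 and 18 UMIs) and epithelium-like cells (2.14, 1.10 to 3.34), which lay 3.95 and 3.86 above it. The shares of mesenchyme-like and epithelium-like cells with a Pdgfb UMI after thinning were below those of cluster 6, which held blood cell genes of several kinds. In the mutant library the epithelial share, 4.56% (2.45 to 7.67%), lay above that of neuron-like cells, 0% (0 to 0.822%). The interval of the mesenchymal share, 1.45% (0.586 to 2.97%), overlapped that of neuron-like cells. Whether these shares stand above background depends on the class compared and was not tested. Pdgfd was lower in EC-like cells (−1.71) and higher in mesothelium-like cells (0.97), 2.68 apart. Pdgfra was lower in EC-like cells (−2.04) and higher in mesothelium-like cells (5.66), 7.70 apart, with 41 and 43 UMIs in the first and 2 and 53 in the second.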

How the results depend on the processing

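No paired analysis was possible because each genotype had 1 library. Over the members with a ratio in 7 classes (EC-like, mesenchyme-like, branchial muscle-like, epithelium-like, neuron-like, cardiomyocyte-like and mesothelium-like), 503 values stayed within the counting interval of the main value, 69 moved outside it and 6 reversed. Reversed values had the other sign from a main value whose interval excluded 0. Moved values could be larger or smaller than the main value, or of the other sign where the main interval included 0. Median-ratio scaling and the wider filter of at least 1000 genes moved none of the 10 planned main results, and neither did resolution 0.8, removal of doublets or, for Kitl in mesenchyme-like cells, leaving out the cartilage-like cluster. The median log2 ratio of all genes in EC-like cells was −0.10, which median-ratio scaling removed. The alternatives were not run for cluster 4 and cluster 6. The log2 ratios of the planned main results that moved are given by alternative, and the cause was not tested. Between female-like cells they were 0.50 for Pdgfa in epithelium-like cells, −0.83, −2.07, −1.19 and −0.06 for Pdgfb, Pdgfd, Kit and Kitl in EC-like cells, and 0.78 and −1.64 for Pdgfrb and Kitl in mesenchyme-like cells. With male-like mutant cells, chosen after seeing the data, they were 0.02 for Pdgfa in epithelium-like cells and −0.77 for Kitl in EC-like cells. In G1 cells they were −0.19 for Pdgfa in branchial muscle-like cells, −0.15, 0.67 and −1.33 for Pdgfra, Pdgfrb and Kitl in mesenchyme-like cells, and 0.21, reversed, for Kit in EC-like cells. As a mean over cells they were 0.52 for Pdgfc in branchial muscle-like cells, −0.14 for Pdgfra in mesenchyme-like cells and −0.56 and −0.22 for Kit and Kitl in EC-like cells. Thinning gave 0.56 for Pdgfc in branchial muscle-like cells and 0.17 for Pdgfrb in mesenchyme-like cells, a mitochondrial limit of 5% gave 0.91 for Pdgfc in branchial muscle-like cells, and no integration gave 0.70 for Pdgfrb in mesenchyme-like cells. Pdgfra, at few UMIs, reversed to 0.10 in EC-like cells without integration, and in branchial muscle-like cells to −0.48 without doublets, −0.15 between female-like cells, −0.88 in G1 cells and −0.41 with male-like mutant cells. Depth limits genes under about 50 UMIs in a class, and 3 counts are the floor.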
